A study of Mus musculus with 6 samples.

Results

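The smooth muscle contractile genes described here are 10 of the 28529 genes counted in epididymal white adipose tissue (eWAT), the fat pad that lies along the epididymis: Acta2, Actg2, Tagln, Cnn1, Lmod1, Myh11, Mylk, Smtn, Des and Synpo2. They were taken by symbol from the table of read counts. They were chosen by their measured levels in these 6 libraries, which differed between mice of one genotype, so their differences between genotypes are given as a description and were not tested. The groups were 3 Maf1-/- mice (KO1, KO2 and KO3), which lack in the whole body the gene for MAF1, a repressor of RNA polymerase III, and 3 wild-type mice (WT1, WT2 and WT3). All were C57BL/6 males (C57Bl/6J background) of 22 to 24 weeks on breeder chow, killed after an overnight fast, and each gave 1 library of ribosomal RNA-depleted, strand-marked total RNA. All 10 genes passed the filter on low counts, which left 16101 genes.

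Smooth muscle lines blood vessels and hollow or tubular organs, among them the ducts of the male reproductive tract that run beside this fat pad. When calcium enters the cell, calmodulin activates myosin light chain kinase, the kinase phosphorylates the light chains of smooth muscle myosin, and myosin then pulls on filaments of smooth muscle actin. Calponin, transgelin, smoothelin and leiomodin sit on or build these thin filaments, and desmin links them to the rest of the cell. Many of these genes are switched on by serum response factor (SRF) and its partner myocardin, which act at a short DNA element called the CArG box.

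Read totals lay between 7207476 (KO2) and 15971900 (WT2). Maf1 itself had 150, 87 and 300 reads in KO1 to KO3, against 655, 1120 and 852 in WT1 to WT3 (log2 fold change -2.0004, SE 0.28). KO1 and WT1 stood apart from the other 4 libraries on the first principal component, which held 60.7% of the variance. At an adjusted p of 0.05, the edgeR quasi-likelihood test called 0 of 16101 genes higher (0% of those tested) and 0 lower (0%) in Maf1-/- tissue. Even Maf1, the deleted gene, was not called (unadjusted p 2.2e-04 by the same test), so 0 calls do not show an absence of change. At an unadjusted p under 0.05, 155 genes were higher (0.963%) and 147 were lower (0.913%). DESeq2 called 8 genes higher and 6 lower, and limma voom called 0. The median log2 fold change over all tested genes was 0.0078.

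The contractile genes did not divide by genotype. In 9 of the 10, KO1 and KO2 both lay above all 3 wild-type libraries while KO3 did not; Synpo2 was the exception. Of all tested genes, 6.6% showed that order, and 9.5% had KO1 and KO2 above all wild-type libraries whatever the place of KO3. KO2 was the highest library for those 9 genes, with KO1 second in each. No contractile gene had every Maf1-/- library above every wild-type library, against 2.9% of all genes, and none had every Maf1-/- library below, against 3.37%. These orders were known when the genes were chosen and nothing is read from the counts. Below, levels are CPM (counts scaled to the total of the library) after TMM scaling, and means are given ± SD over 3 libraries each. In bulk tissue, more smooth muscle cells and more RNA per cell cannot be told apart.

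**Figure D1:**
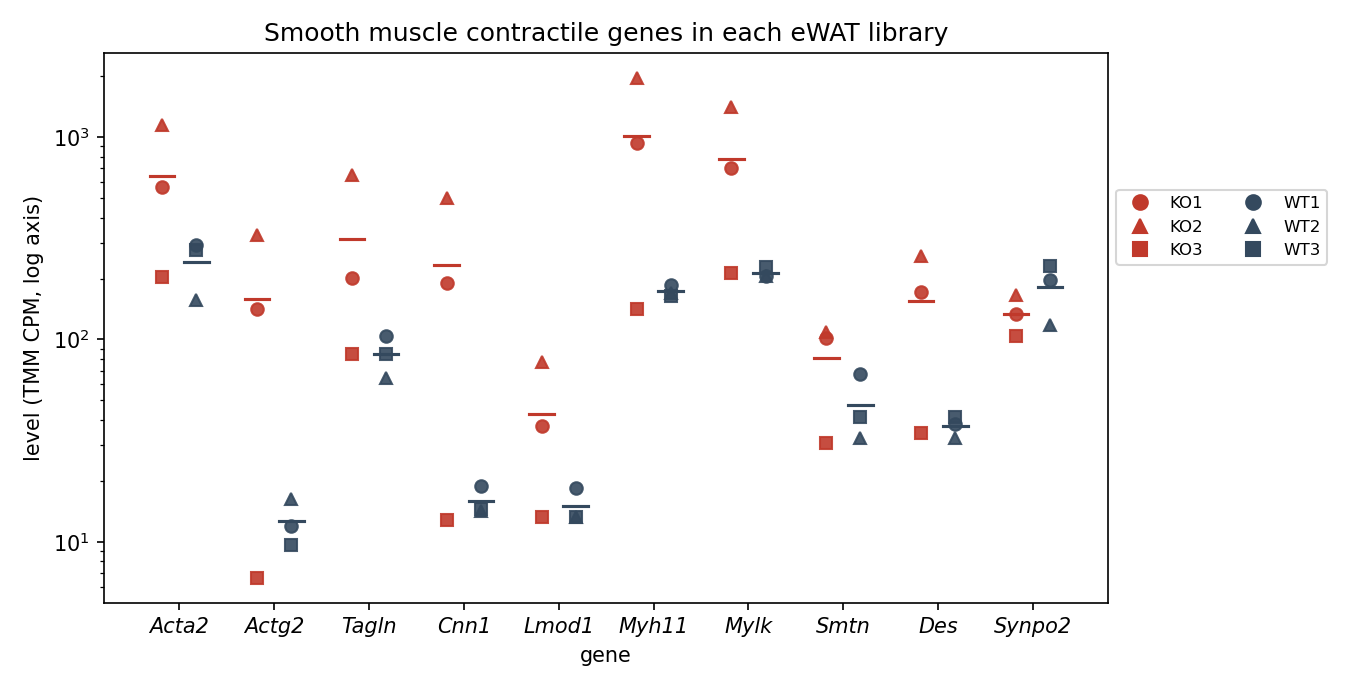
CPM (log axis) of the 10 contractile genes in each library, with the Maf1-/- libraries left of the wild-type libraries. Points are single libraries and short lines are means; for Cnn1 the values were 189, 500.5 and 12.9 in KO1 to KO3, against 18.9, 14.2 and 14.5 in WT1 to WT3.

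Acta2 (chr19:34315580-34329826, minus strand, mm9) encodes smooth muscle alpha-actin, the actin of vascular smooth muscle and of myofibroblasts. It had 569, 1149 and 202 CPM in KO1 to KO3, against 292, 157 and 275 in WT1 to WT3. KO1 and KO2 were above the wild-type range and KO3 lay inside it. The mean was 640 ± 477 CPM in Maf1-/- and 241 ± 73.6 CPM in wild-type tissue, and the fitted log2 fold change was 1.41 (SE 0.62). Without KO2 it was 0.68, the lowest of the 6 values with 1 library left out.

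A stretch of the Acta2 promoter is shown because it was the only one of the 7 contractile gene promoters in the RefSeq promoter table (GRCm38.p6; Actg2, Myh11 and Tagln are not in it) that held a CArG-like match, and SRF-dependent control of this gene is textbook knowledge. The stretch runs from 5′ to 3′ on the minus strand at chr19:34255368-34255487 of GRCm38.p6, and the capitals mark CArG-like boxes, that is CArG boxes with 1 G or C allowed in the A/T core.
Acta2: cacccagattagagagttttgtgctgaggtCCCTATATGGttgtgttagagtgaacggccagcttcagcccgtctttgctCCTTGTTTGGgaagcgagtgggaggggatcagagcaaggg
The boxes start 84 and 34 bases before the annotated start site. Such a match was found in 1 of 7 contractile gene promoters and in 8.5% of 32851 mouse promoters of 300 bases. A strict CArG box was in 0 of 7 and in 1.63% of all promoters. The MCAT motif CATTCC, searched on both strands and not overlapping the boxes, was in Acta2, Mylk, Smtn and Lmod1, that is 4 of 7, and in 14.7% of all promoters. A match is a description of the letters in this window and says nothing of binding.

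Actg2 (chr6:83462899-83486259, minus strand, mm9) encodes smooth muscle gamma-actin, the form of visceral smooth muscle such as gut and genital tract. It had 142, 329 and 6.66 CPM in KO1 to KO3, against 11.9, 16.4 and 9.68 CPM in WT1 to WT3. KO1 and KO2 were above all wild-type libraries, whereas KO3 was below all of them. The 90 reads of KO3 give a 95% Poisson interval of 5.35 to 8.18 CPM, which overlaps that of WT3 (8.06 to 11.5 CPM) in counting error alone. The mean was 159 ± 162 CPM in Maf1-/- and 12.7 ± 3.40 CPM in wild-type tissue (log2 fold change 3.65, SE 1.18). The highest Maf1-/- library exceeded the lowest 49.3-fold, the widest spread within the Maf1-/- group among the 10 genes.

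Tagln (chr9:45737711-45744141, minus strand, mm9) encodes transgelin (SM22), an actin-binding protein found widely in smooth muscle. Its levels were 200.2, 652 and 85.1 CPM in KO1 to KO3, against 104, 64.9 and 84.6 CPM in WT1 to WT3. KO2 stood well above all others and KO3 lay within the wild-type range. The mean was 313 ± 299.8 CPM in Maf1-/- and 84.5 ± 19.6 CPM in wild-type tissue (log2 fold change 1.89, SE 0.71). Pcsk7, on the opposite strand, overlaps 4.1% of the exon bases of Tagln. Leaving out KO2 gave a log2 fold change of 0.76.

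Cnn1 (chr9:21903725-21914074, plus strand, mm9) encodes basic calponin, which binds actin and lowers the ATPase activity of myosin and is a marker of differentiated smooth muscle. It had 189, 500.5 and 12.9 CPM in KO1 to KO3, against 18.9, 14.2 and 14.5 CPM in WT1 to WT3. KO1 and KO2 were above all wild-type libraries and KO3 was below all of them. The 3 wild-type libraries differed among themselves by 1.33-fold, the 3 Maf1-/- libraries by 38.9-fold. The mean was 234 ± 247 CPM in Maf1-/- and 15.8 ± 2.62 CPM in wild-type tissue, and its log2 fold change of 3.88 (SE 1.13) was the largest of the 10. It was 2.67 without KO2, and -0.29 with KO3 as the only Maf1-/- library.

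Lmod1 (chr1:137221384-137264642, plus strand, mm9) encodes leiomodin 1, which nucleates actin filaments in smooth muscle. Its levels were low, at 37.3, 77.7 and 13.3 CPM in KO1 to KO3, against 18.5, 13.3 and 13.3 CPM in WT1 to WT3. KO3 was level with WT2 and WT3. The mean was 42.8 ± 32.5 CPM in Maf1-/- and 15.04 ± 3.01 CPM in wild-type tissue (log2 fold change 1.504, SE 0.59).

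On the motor side, Myh11 (chr16:14194620-14291501, minus strand, mm9) encodes the smooth muscle myosin heavy chain. It had 933, 1959 and 141 CPM in KO1 to KO3, against 186, 169 and 164 CPM in WT1 to WT3. The wild-type libraries were close together, and KO3 lay under them. The mean was 1011 ± 912 CPM in Maf1-/- and 173 ± 11.99 CPM in wild-type tissue (log2 fold change 2.55, SE 0.83). Myh11 shared 26 of 6629 stretches of 50 bases (0.392%) with Myh9 or Myh10, its non-muscle relatives, and Acta2 shared 7 of 1732 (0.404%) with Actg1. The other 8 contractile genes shared 0 with another protein-coding gene. Reads that fall wholly in a shared stretch are not unique and would not be counted.

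Mylk (chr16:34745296-35002520, plus strand, mm9) encodes myosin light chain kinase, and its last part is also transcribed as telokin, which a gene-level count does not separate. It had 704, 1410.5 and 214 CPM in KO1 to KO3, against 206, 205 and 229 CPM in WT1 to WT3. KO3 sat among the wild-type libraries, which spanned only 1.11-fold. The mean was 776 ± 602 CPM in Maf1-/- and 213 ± 13.1 CPM in wild-type tissue (log2 fold change 1.86, SE 0.63).

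Smtn (chr11:3417526-3440615, minus strand, mm9) encodes smoothelin, a protein of contractile smooth muscle that associates with actin stress fibres. Its levels were 102, 109 and 30.8 CPM in KO1 to KO3, against 67.7, 32.7 and 41.3 CPM in WT1 to WT3. KO1 and KO2 were above the wild-type range and KO3 was below it. The difference was the smallest of the 9 genes with a positive sign: the mean was 80.6 ± 43.2 CPM in Maf1-/- and 47.2 ± 18.3 CPM in wild-type tissue (log2 fold change 0.77, SE 0.51). Non-coding genes on the opposite strand overlap 16.3% (Gm11946) and 0.89% (Gm11947) of its exon bases. The libraries mark strand, but the strand setting of the counting is not given in the sources used here.

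Des (chr1:75356904-75365154, plus strand, mm9) encodes desmin, the intermediate filament of smooth, cardiac and skeletal muscle. It had 172, 258 and 34.5 CPM in KO1 to KO3, against 38.1, 32.5 and 41.6 CPM in WT1 to WT3. KO3 lay between the wild-type libraries. The non-coding gene Gm15179 on the opposite strand overlaps 5.86% of its exon bases. The mean was 155 ± 113 CPM in Maf1-/- and 37.4 ± 4.54 CPM in wild-type tissue (log2 fold change 2.05, SE 0.66).

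Synpo2 (chr3:122779437-122939067, minus strand, mm9) encodes synaptopodin 2 (myopodin), an actin-bundling protein of dense bodies and Z-discs. Its levels were 133, 166 and 104 CPM in KO1 to KO3, against 197, 117 and 230.3 CPM in WT1 to WT3. The libraries of the genotypes overlapped, since WT2 was below KO1 and KO2. The mean was 134 ± 30.9 CPM in Maf1-/- and 182 ± 58.0 CPM in wild-type tissue (log2 fold change -0.44, SE 0.31). On the fitted scale it was the only one of the 10 below 0.

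Leaving out each library in turn did not change the sign of any of the 10 log2 fold changes, but the size depended on KO2. Without it the log2 fold change was 2.67 for Cnn1, 2.55 for Actg2, 1.64 for Myh11, 1.46 for Des, 1.11 for Mylk, 0.76 for Tagln, 0.75 for Lmod1, 0.68 for Acta2 and 0.49 for Smtn, the lowest value of each of these 9 genes with 1 library left out. Their highest values came without KO3, at 4.44 for Cnn1 and 4.21 for Actg2, and at 1.15 to 3.06 for the other 7. Synpo2 ranged between -0.67 without WT2 and -0.21 without WT3. With both KO1 and KO2 left out, an alternative chosen after the values were seen, 2 of the 10 values were above 0: Mylk (0.0091) and Tagln (0.018). Actg2 was then -0.92, Smtn -0.61, Synpo2 -0.80 and the other 5 between -0.29 and -0.11. With KO1 and WT1 left out together, 9 were again above 0.

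Summed over the 10 genes, the level was 3181, 6610 and 844 CPM in KO1 to KO3, against 1141, 823 and 1103 CPM in WT1 to WT3. The group took 0.287%, 0.685% and 0.0872% of all reads in KO1 to KO3, against 0.109%, 0.0863% and 0.112% in WT1 to WT3. KO3 was thus close to the wild-type libraries, and KO1 and KO2 were above all of them. The non-muscle actins Actb and Actg1 together had 2504, 3176 and 2310.3 CPM in KO1 to KO3, against 2778, 2344 and 2958 CPM in WT1 to WT3.

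Levels of different genes can be compared only per length of exon. Per kb of exon, Acta2 was the most abundant of the 10 in both genotypes, with 359 ± 268 CPM per kb in Maf1-/- and 136 ± 41.3 in wild-type tissue. Tagln came second, with 197 ± 189 in Maf1-/- and 53.3 ± 12.3 in wild-type tissue, and Myh11 next, with 152 ± 137 in Maf1-/- and 26.1 ± 1.81 in wild-type tissue. In wild-type tissue, Lmod1 (3.81 ± 0.763) was last, and Smtn, Des, Actg2 and Cnn1 lay between 10.8 and 6.69, and neighbours among these 4 overlapped. Cnn1 did not overlap Lmod1. By their means, Actg2 and Cnn1 ranked below Mylk, Synpo2, Smtn and Des in wild-type tissue. Their means in Maf1-/- tissue (102 ± 103 for Actg2 and 98.9 ± 104 for Cnn1) ranked above all 4. That order held in KO1 and KO2 but not in KO3, and the Maf1-/- libraries of Actg2 and Cnn1 spanned the widest range of all. In KO3, Actg2 (4.26) and Cnn1 (5.44) were below all 4, of which Smtn (7.04) was the lowest.

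The make-up of the contractile group also differed between libraries. Relative to Acta2, per kb, Cnn1 was 0.250 in KO1, 0.328 in KO2 and 0.0478 in KO3, against 0.0486, 0.0678 and 0.0397 in WT1 to WT3. Actg2 was 0.285, 0.326 and 0.0375 in KO1 to KO3, against 0.0465, 0.119 and 0.0401 in WT1 to WT3. The visceral actin and calponin were thus a larger part of the group in KO1 and KO2, beyond the wild-type spread. Myh11 was 0.441, 0.458 and 0.187 in KO1 to KO3, against 0.171, 0.289 and 0.160 in WT1 to WT3. Lmod1, at 0.0296, 0.0305 and 0.0297 in the Maf1-/- libraries, against 0.0286, 0.0383 and 0.0218 in the wild-type libraries, had nearly the same ratio in the 3 Maf1-/- libraries. The ratio of Synpo2 was lower in every Maf1-/- library than in any wild-type library, at 0.0444, 0.0273 and 0.0972, against 0.128, 0.142 and 0.158 in the wild-type libraries. It was the only ratio that divided the genotypes, was picked out after the ratios were seen, and was not tested. The CPM of Synpo2 itself overlapped between genotypes. Acta2, the denominator, was at 2.35, 4.76 and 0.839 times its wild-type mean in KO1 to KO3.

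**Figure D2:**
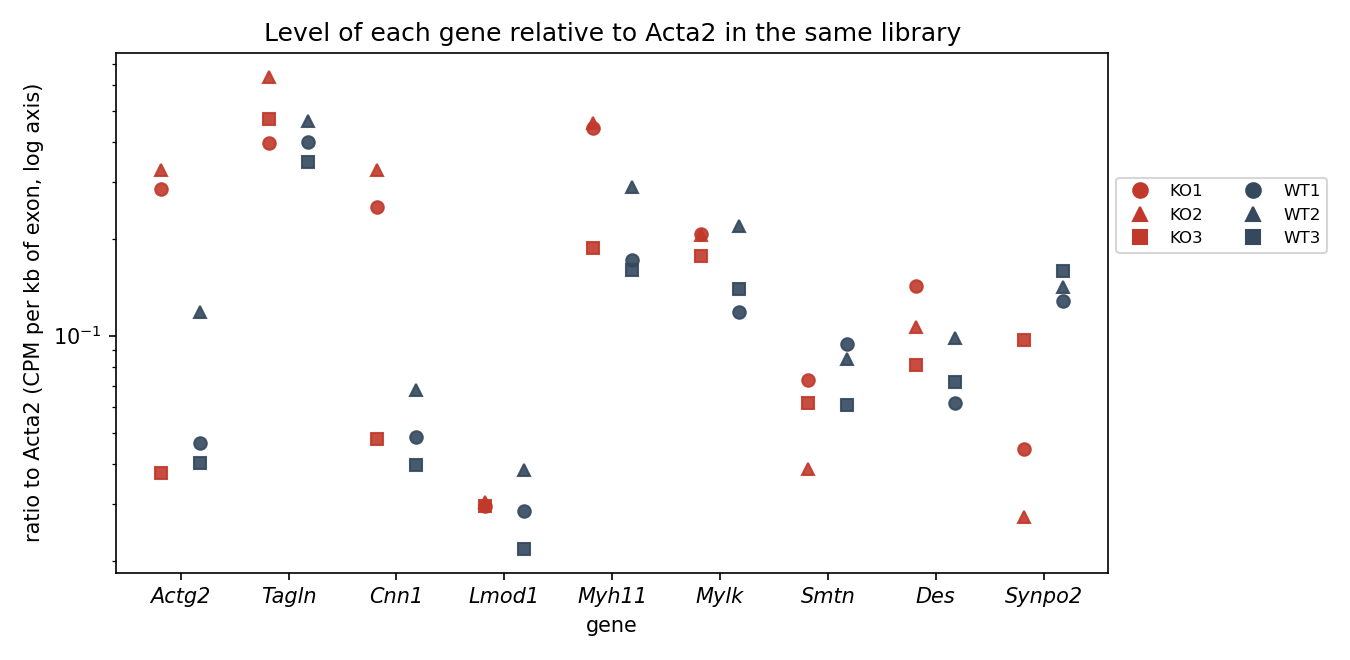
Ratio of each contractile gene to Acta2, both per kb of exon (log axis), in each library, Maf1-/- left of wild-type. For Actg2, KO1 and KO2 (0.285 and 0.326) lie above WT1 to WT3 (0.0465, 0.119 and 0.0401), and KO3 (0.0375) lies below them.

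Across the 6 libraries, the log2 CPM of the 8 genes other than Smtn and Synpo2 correlated with Pearson's r of 0.91 to 0.999 (median 0.974 over 28 pairs). Smtn correlated with these 8 at 0.843 to 0.914. Synpo2 correlated with the other 9 at 0.0068 to 0.308. The 6 points share the same libraries and depth, so these values only describe how the genes vary together.

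Over the 6 libraries, the 10 non-members with the highest mean correlation with the contractile genes were Ptprz1 (mean r 0.892), Ndufs4, Tmem47, Dmd, Kdm6a, Gnb2, Csrp1, Jph2, Abcg2 and Pcp4l1 (0.884). The mean was taken over all 10 contractile genes, so likeness to Synpo2, which varied apart from the other 9, also counted. The highest mean r of a contractile gene with the other 9 was lower, at 0.874 (Acta2). A high correlation did not need a large difference: the log2 fold change was 0.12 for Kdm6a and 0.073 for Gnb2. A mean correlation above 0.8 was found for 333 of 16091 non-members (2.07%), and the median was -0.030. Dmd encodes dystrophin, which anchors the muscle cytoskeleton to the membrane, and had 95.5, 116 and 60.2 CPM in KO1 to KO3, against 64.7, 60.9 and 67.5 CPM in WT1 to WT3. Csrp1 encodes a LIM protein of smooth muscle and had 302, 626 and 142 CPM in KO1 to KO3, against 186, 128 and 165 CPM in WT1 to WT3. Abcg2, a membrane transporter, had 233, 584 and 30.3 CPM in KO1 to KO3, against 44.9, 34.1 and 35.0 CPM in WT1 to WT3. These 3 genes had KO1 and KO2 high, like the contractile genes other than Synpo2. They were selected by correlation with the contractile genes over the same 6 libraries, so nothing is read from that order.

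**Figure D3:**
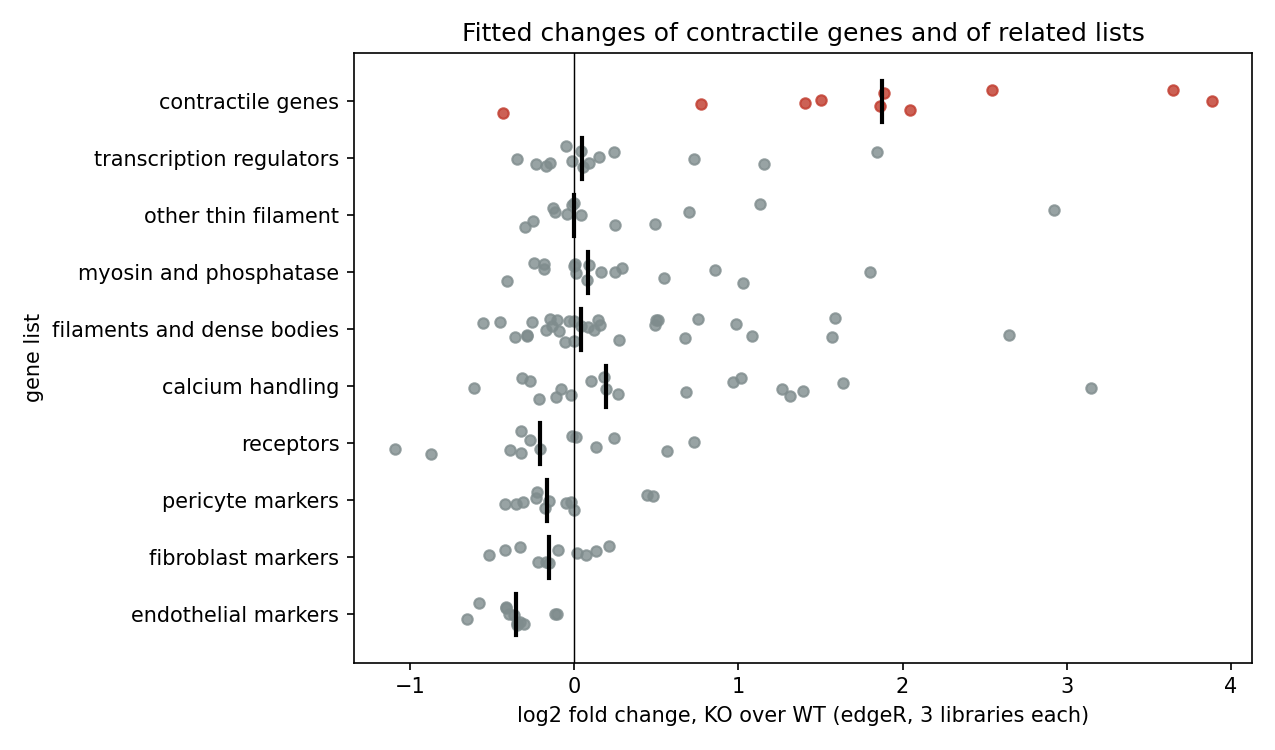
Log2 fold change (Maf1-/- minus wild-type) of the tested genes of each list, 1 point per gene, with the list's median as a vertical bar; the contractile genes are in the top row and pericyte, fibroblast and endothelial markers in the lowest rows. The medians of the 6 smooth muscle lists lie between -0.21 and 0.19.

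In all, 6 lists of other smooth muscle genes were counted in the same fit. They held 113 genes, of which 106 were tested. By edgeR's quasi-likelihood test 0 passed in either direction, with a smallest adjusted p of 1.00, and DESeq2, limma voom and the fit with the replicate block also called 0 of them. At an unadjusted p under 0.05, 11 were higher (10.4%, against 0.963% of all genes) and 0 were lower (against 0.913%), and 33 had KO1 and KO2 above every wild-type library (31.1%, against 9.5% of all genes). Their median log2 fold change was 0.042, beside 0.0078 over all genes. These lists were also chosen with earlier results known, and nothing particular to them is read from the shares. Every Maf1-/- library was above every wild-type library for 4 (Atp2a2, Trpc6, P2rx1 and Casq2) (3.77% of 106, against 2.9% of all genes) and below for 1 (Actg1; 0.943%, against 3.37%); these were named after their values were seen.

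Among the regulators (14 tested), Myocd, the gene of myocardin, had 117, 58 and 20 reads in KO1 to KO3, against 21, 35 and 20 in WT1 to WT3, and a log2 fold change of 1.85 (SE 0.71). It was the only regulator with an unadjusted p under 0.05. Of the 14, 8 had a log2 fold change above 0 and 6 below, with a median of 0.046. Srf, named after its values were seen, was at 0.15 (SE 0.16). Among the thin filament genes (13 tested), Tpm2, a tropomyosin of muscle, had 193, 766 and 41.2 CPM in KO1 to KO3, against 50.3, 39.4 and 42.1 CPM in WT1 to WT3, with a log2 fold change of 2.92 (SE 0.96). Tpm1 had a log2 fold change of 1.13, and the median of the list was -0.0012.

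Among the myosin light chain, kinase and phosphatase genes (16 tested), Myl9, the regulatory light chain of smooth muscle myosin, had 219, 556 and 74.1 CPM in KO1 to KO3, against 94.6, 72.6 and 76.5 CPM in WT1 to WT3 (log2 fold change 1.80, SE 0.67). Ppp1r12a, the targeting subunit of myosin phosphatase, had a log2 fold change of 0.86, whereas Rock2, a kinase that inhibits that phosphatase, was at -0.41. Among the dense body and adhesion genes (31 tested), Pdlim3, a PDZ and LIM protein, was at 2.65 (SE 0.85). In the same list Pgm5 was at 1.59 and Synm, which encodes the intermediate filament protein synemin, was at 1.57.

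Among the calcium handling and channel genes (19 tested), P2rx1, an ATP-gated channel needed for contraction of the mouse vas deferens, had 23.5, 79.3 and 4.66 CPM in KO1 to KO3, against 3.65, 3.94 and 4.45 CPM in WT1 to WT3 (log2 fold change 3.15, SE 0.93). Jph2, which joins the plasma membrane to the calcium store, was at 1.64, and Pde5a, a cGMP phosphodiesterase of smooth muscle, was at 0.97. In this list 10 of 19 (52.6%) had KO1 and KO2 above every wild-type library, and in the other 5 smooth muscle lists the share was 14.3% to 32.3%, against 9.5% of all genes. Among the receptors (13 tested), none had an unadjusted p under 0.05 in either direction; the oxytocin receptor gene Oxtr was at -1.10, Chrm3 at 0.73 and Ednra at 0.56.

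Markers of other cells and organs that a fat pad dissection can hold were summed beside the contractile genes. Pericyte markers (12) summed to 1403, 731 and 888 CPM in KO1 to KO3, against 1450.2, 890.4 and 1131 CPM in WT1 to WT3. Endothelial markers (12) summed to 1340.3, 1023 and 1066 CPM in KO1 to KO3, against 2005, 994 and 1311 CPM in WT1 to WT3. Neither sum had KO1 and KO2 above the wild-type range, and neither list held a gene at 0 in any library. The 26 striated muscle markers summed to 163, 361 and 112 CPM in KO1 to KO3, against 117, 114 and 160.04 CPM in WT1 to WT3, with 0 to 5 of them at 0 in a library. Ckm, the muscle creatine kinase, had 112, 369 and 14 reads in KO1 to KO3, against 0, 17 and 1 in WT1 to WT3. Of the 18 tested, 14 had a log2 fold change above 0 and 4 below. KO1 and KO2 were above every wild-type library for 5 (27.8%, against 9.5% of all genes). Every Maf1-/- library was above every wild-type library for 1 (Ckm) and below for 1 (Actn3, named after its values were seen), against 2.9% and 3.37% of all genes. Nothing is read from these shares.

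Akr1b7, an aldo-keto reductase abundant in the mouse vas deferens, moved with the contractile genes, at 1917, 8301 and 18.9 CPM in KO1 to KO3, against 19.3, 26.9 and 22.6 CPM in WT1 to WT3. Its log2 fold change was 7.22 (SE 1.91), with an adjusted p of 1.00 by edgeR's quasi-likelihood test and 0.0111 by DESeq2. All 12 markers of vas deferens and seminal vesicle summed to 1954, 8473 and 168 CPM in KO1 to KO3, against 20.0, 102 and 142 CPM in WT1 to WT3. Without Akr1b7, the sum was 37.4, 172 and 149 CPM in KO1 to KO3, against 0.696, 75.2 and 120 CPM in WT1 to WT3, so KO3 was then also above all wild-type libraries and KO1 was not. Most of that sum in KO2, KO3, WT2 and WT3 was Ceacam10 alone. It had 4.35, 148 and 127 CPM in KO1 to KO3, against 0, 57.9 and 109 CPM in WT1 to WT3. The 6 seminal vesicle secretory protein genes (Svs) had 309, 32 and 0 reads in KO1 to KO3, against 0, 1 and 0 in WT1 to WT3. Of the 12 markers, 0, 3 and 7 were at 0 in KO1 to KO3, against 10, 6 and 7 in WT1 to WT3.

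The 16 epididymal markers did not follow the contractile genes: they summed to 795, 6326 and 8781 CPM in KO1 to KO3, against 18.1, 6625 and 4499 CPM in WT1 to WT3. In KO1, Crisp1 alone gave 794.6 CPM, nearly all of the sum. Markers at 0 numbered 12, 2 and 1 in KO1 to KO3, against 7, 1 and 0 in WT1 to WT3. Spermatid markers (10) summed to 0.815, 197 and 114 CPM in KO1 to KO3, against 7.56, 922 and 123 CPM in WT1 to WT3. Fibroblast markers (11) summed to 5909.7, 5347 and 4439 CPM in KO1 to KO3, against 6653, 4132 and 5869 CPM in WT1 to WT3. Mesothelial markers (9) summed to 405, 707 and 606 CPM in KO1 to KO3, against 393, 484 and 595 CPM in WT1 to WT3. Neither sum set KO1 and KO2 apart from all the other libraries. Adipocyte markers (13) summed to 43079, 35973 and 26317 CPM in KO1 to KO3, against 42226, 34386 and 34545 CPM in WT1 to WT3, with none at 0 in any library. Of the genes in these 9 lists, the edgeR quasi-likelihood test called 0 at the adjusted threshold, and at an unadjusted p under 0.05 the genes higher in Maf1-/- tissue were 2 of 18 tested striated muscle markers and 1 of 4 tested vas deferens and seminal vesicle markers (Akr1b7), beside 0.963% of all genes. The only lower one was Lep (log2 fold change -1.48), 1 of 13 adipocyte genes, beside 0.913% of all genes. The part of any other tissue in the level of the contractile genes was not tested.

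**Figure D4:**
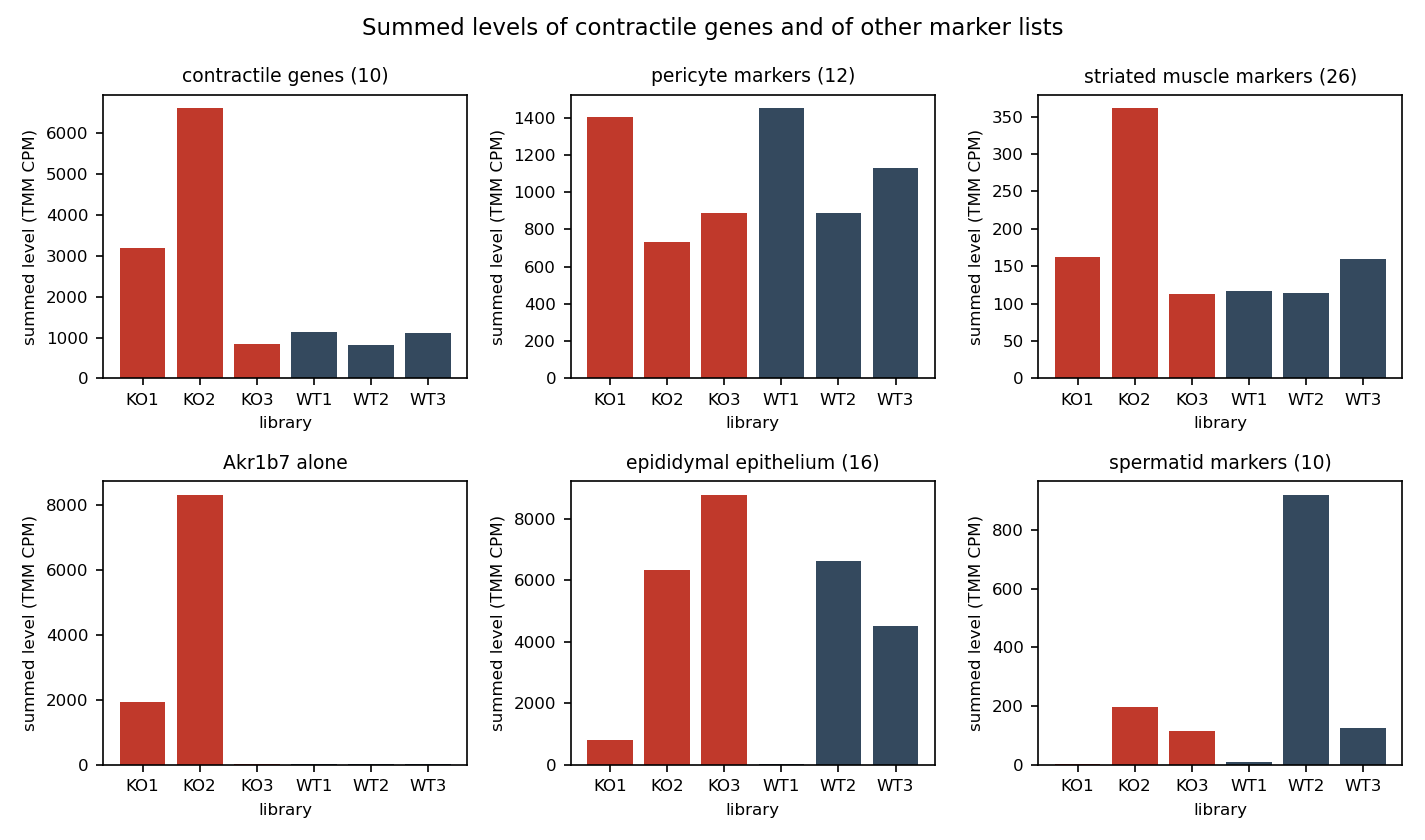
Summed CPM (linear axis from 0) of the contractile genes, of 4 marker lists and of Akr1b7 alone, with 1 bar per library and Maf1-/- left of wild-type. The contractile genes stand at 3181 and 6610 CPM in KO1 and KO2 and at 844 CPM in KO3, against 823 to 1141 CPM in the wild-type libraries.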

How the data were processed

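RNA of eWAT from 3 Maf1-/- and 3 wild-type mice was sequenced, with 1 library per mouse. The expected count values were deposited by the authors, who aligned reads to mm9 with GSNAP (2012-06-12) and counted uniquely mapped reads per gene with HTSeq; each gene holds a whole number and nothing was rounded. The authors' 6 columns of normalized counts and 4 columns of their own edgeR comparison (log2 fold changes, p-values) were not used, and 2 lines of the table that name no gene were dropped. Of 28529 genes, 28339 matched GENCODE M1 by gene ID.

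Genes were filtered with filterByExpr, scaled by TMM and tested with edgeR 4.0.16 in R 4.3.3 on genotype alone, with Benjamini-Hochberg adjustment over all tested genes and a threshold of 0.05. Each SE from edgeR is the absolute log2 fold change divided by the square root of the quasi-likelihood F statistic. For the contractile genes it is a description only. Correlations used log2 CPM with a prior count of 2. Intervals of 95% are exact Poisson and cover counting error only. The fit was also run on simulated counts with known changes, drawn independently for each gene and library. These held no structure shared by KO1 and WT1, so that run does not bear on such structure. Exon lengths and coordinates are from GENCODE M1 (mm9) and promoter sequences from RefSeq (GRCm38.p6). Coordinates were not converted between builds. Residual correlations of same-numbered libraries were 0.656, 0.355 and 0.336, each over the limit of 0.1 set for pairing, but WT2 correlated more with KO3 (0.466) than with KO2, and WT3 with KO2 at 0.286; the labels name no shared litter, batch or day. The number was tried as a block. Replicates are separate mice. The genes described are all 10 members, Maf1, up to 3 tested genes per list with the smallest unadjusted p, and the 10 most similar genes by mean correlation. The members and lists were chosen with earlier results of these data known. DESeq2 1.42.0, limma voom 3.58.1, RLE and library-size scaling, no filter, the block and leaving out libraries were alternatives. Tables and plots used Python 3.11.15, pandas 2.3.3, numpy 2.4.6 and matplotlib 3.10.9. The planned protein comparison was not run and shared stretches of 50 bases between transcripts were counted instead.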

Additional observations from a re-analysis of the deposited data

How the results depend on the processing

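Over 98 results and 1368 alternative values, 1315 kept their direction and side of the threshold or stayed within the spread. That spread was the SD within genotypes, which for most contractile genes holds the gap between KO3 and the other Maf1-/- libraries. With 0 genes called by edgeR, the side of the threshold had little room to change. A reversed direction was recorded for 27 of the 98 results, a label given only to single genes other than the 10 members. The edgeR quasi-likelihood fit called 0 genes higher and 0 lower with each library left out, with the replicate block and under every scaling tried, whereas DESeq2 called 8 higher and 6 lower; the cause was not tested. The block changed no call: the log2 fold change of Cnn1 was 2.93 and of Actg2 2.72 with it. The log2 ratio of the summed level of the 10 genes was 0.98 to 2.26 with 1 library left out and -0.28 with KO1 and KO2 left out, which was chosen after seeing the data and leaves 1 Maf1-/- library, assumed to vary like the wild-type libraries. In the same setting the log2 fold change was -0.32 for Abcg2, -0.27 for Akr1b7, -1.19 for Casq1, -0.40 for Cspg4, -0.17 for Csrp1, -0.090 for Dmd, -0.36 for Ednra, -0.012 for Gnb2, -0.019 for Jph2, -0.0027 for Kdm6a, -0.13 for Myl9, -0.30 for Myocd, -0.23 for Ndufs4, -0.38 for Pcp4l1, -0.087 for Pde5a, -0.28 for Pdlim3, -0.0032 for Pgm5, -0.59 for Ptprz1, -0.044 for Synm, -0.21 for Tmem47 and -0.086 for Tpm2. Cspg4 was -0.20 without KO1 and WT1, and with 1 library left out it ran from -0.30 (without KO1) to 0.77. The range with 1 library left out was -0.41 to 0.044 (without WT1) for Abcc9. Without WT2, the highest value of the range was 0.26 for Akap4, 2.34 for Cst8, 0.31 for Gapdhs and 1.00 for Tnp2, whose lowest values were -3.21, -2.96, -2.92 and -3.74, and Defb48 ran from -0.54 (without KO2) to 2.18. By DESeq2 alone, adjusted p was 1.33e-05 for Maf1, 0.0203 for Tnnc2 and 0.0111 for Akr1b7. The libraries are 3 per genotype and KO2 was sequenced least, so genes with few reads are imprecise.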
